A study of Mus musculus with 15 samples.

Results

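The 37 genes described here mark the immune cells that a piece of liver can hold and the machinery with which those cells present antigen. They were taken by name: every probe whose gene name on the array is one of the 37 was used. This gave 48 probes of the 55681 on the array, and 37 of the 22032 gene symbols. Liver RNA of male CD1 mice, an outbred stock, was measured on 15 single-colour arrays. Mice of group C, the control, received saline 15 days after birth, and mice of groups T and G received 25 μg of the carcinogen DEN (diethylnitrosamine) per g of body weight on the same day. From week 28 to week 34 all 3 groups were treated weekly by HGD, the hydrodynamic gene delivery of 50 μg of plasmid DNA into the liver. Groups C and T received the empty plasmid, so that a control liver is here one that was itself injected repeatedly, and group G received a plasmid with HA-tagged Gas1 under the ubiquitous CAG promoter. Livers were taken at week 35, whereas the sample records give an age of 10 weeks. DEN induces liver tumours, and the share of tumour in each piece of liver is not given in the sources used here.

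In group C the RNA code of arrays 3 and 4 was the same, and so was that of arrays 4 and 5 in group T. Their log2 values differed with an SD of 0.146 and 0.143 over 8478 genes detected on all arrays, against 0.291 and 0.235 for the next closest pair of the same group, and each such pair was averaged. Groups C, T and G thus held 3, 4 and 6 mice, named C1 to C3, T1 to T4 and G1 to G6. Between 15707 and 29765 spots per array were well above background, the flag with which the scanner software marks a spot that can be told from its surroundings. All 8 hepatocyte markers checked, such as albumin (Alb), carried this flag on all 15 arrays. Gas1 itself averaged 6.53 ± 0.09 in group T and 6.61 ± 0.11 in group G (log2 intensity, mean ± SD, n = 4 and 6), a difference of 0.08 with an adjusted p of 0.765 by limma, and whether its 3 probes lie in the part carried by the plasmid was not checked.

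Lymphocytes recognise antigen through receptor complexes such as CD3 on T cells and CD79 on B cells, and cytotoxic lymphocytes kill with perforin and granzymes. Neutrophils and monocytes enter the liver from the blood and carry calprotectin, the S100A8 and S100A9 dimer, among their most abundant proteins. Dendritic cells, B cells and macrophages display peptides on MHC class II molecules, whose genes are switched on together by the coactivator CIITA, acting with the RFX complex on the X box and with NF-Y on the Y box of their promoters.

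The promoters of H2-Aa and H2-Eb1 are shown because class II genes share this control. H2-Ab1 had no promoter in the table used, and that of Cd74 is not shown. Of the 37 members, 27 had a promoter in the RefSeq table (GRCm38.p6), among them H2-Aa and H2-Eb1. The 250 bases before the start of each are given 5′ to 3′, with GCAACT and GATTGG in capitals, letters found near the X and Y boxes of such promoters:
H2-Aa (chr17:34287824-34288073, minus strand): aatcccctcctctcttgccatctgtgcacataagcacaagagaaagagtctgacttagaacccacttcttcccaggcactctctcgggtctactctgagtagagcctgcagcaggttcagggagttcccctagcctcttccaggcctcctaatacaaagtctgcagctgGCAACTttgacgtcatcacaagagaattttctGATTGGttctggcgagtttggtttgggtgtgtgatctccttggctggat
H2-Eb1 (chr17:34305617-34305866, plus strand): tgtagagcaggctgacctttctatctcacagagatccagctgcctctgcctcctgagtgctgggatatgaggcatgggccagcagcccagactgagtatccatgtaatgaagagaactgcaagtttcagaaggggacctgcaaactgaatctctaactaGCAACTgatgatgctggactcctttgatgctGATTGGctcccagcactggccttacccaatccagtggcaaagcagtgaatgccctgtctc
In H2-Aa the 2 words begin 81 and 49 bases before the start with 26 bases between them, and in H2-Eb1 91 and 60 bases before it with 25 between. On either strand, GCAACT was found in 9.01% and GATTGG in 14.6% of the 32851 promoters of the table, and GCAACT followed within 50 bases by GATTGG in 0.128%. These words were chosen after both promoters had been read, so the match is only a description.

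Most of the 37 genes were near the limit of detection in whole liver. On at least 1 array 32 of them were well above background, and 9 were so on all 15 arrays: Cd3e, Cd4, Nkg7, Itgam, S100a9, Elane, H2-Aa, H2-Ab1 and Cd74. Another 5 were never well above background, namely Cd8b1, Gzmb, Cd40, Foxp3 and Cd274, so that their differences are ones between values close to the background. In RNA of a whole tissue, fewer cells of a type cannot be told apart from less RNA per cell.

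**Figure D1:**
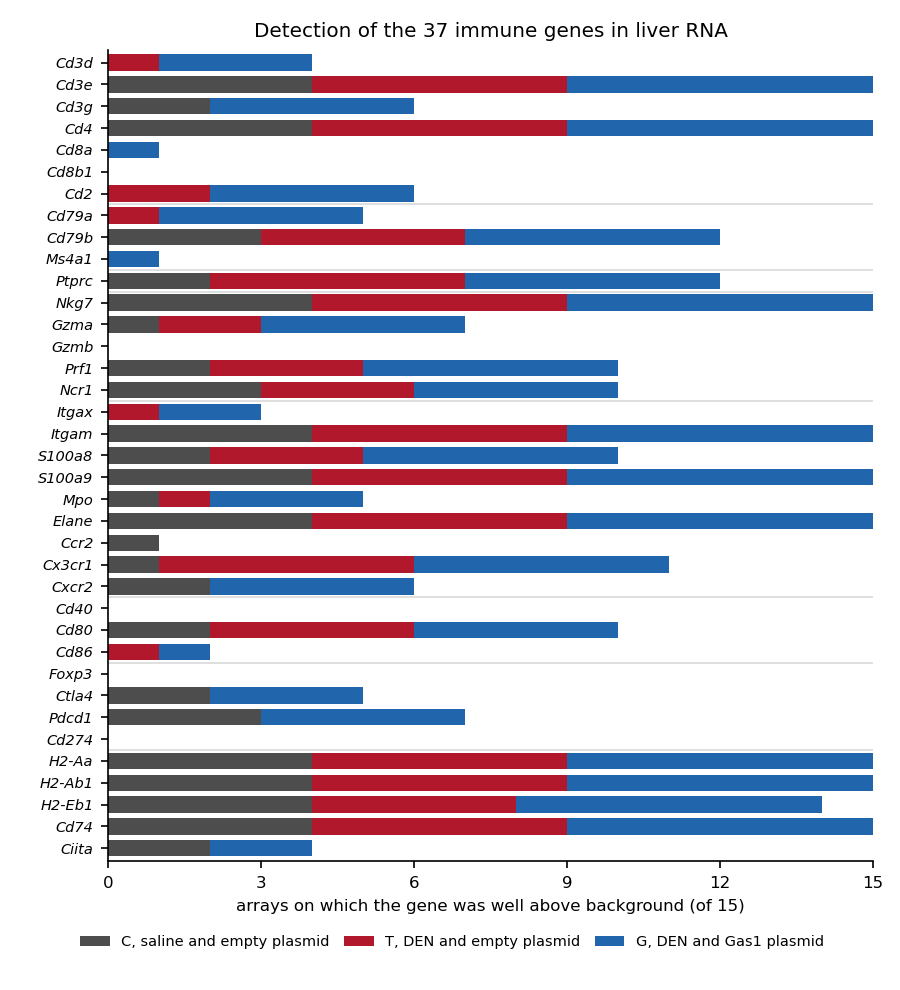
Number of arrays, of 15, on which each of the 37 genes was well above background, with the arrays of group C, T and G stacked in that order and the genes ordered by cell type (grey lines). Full bars are the 9 genes detected on every array, and rows without a bar the 5 detected on none.

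None of the 37 members passed an adjusted p of 0.05 in any of the 3 comparisons by limma, fitted over all 22032 gene symbols. For T against C, which compares DEN-treated with saline-treated mice, 0 of 37 members were called where 2.37% of all genes were. At an unadjusted p under 0.05, 7 members (18.9%) had higher and 4 (10.8%) lower values in T, that is 11 of 37. Of all genes 10.6% had higher and 9.61% lower values, so that the lower members were near the share of all genes. The 7 higher ones were above background on 0 (Cd40, Cd274), 1 (Ms4a1), 2 (Cd86), 5 (Cd79a), 10 (S100a8) and 15 arrays (S100a9). Under other processing they numbered from 0 (slide 2 alone) to 10 (arrays scaled to their median), and 3 of 28 with dim probes left out. By the methods' t-test 6 members had an unadjusted p under 0.05 and 0 passed after adjustment, as did 0 of 22000 genes in all. The share of all genes under the unadjusted p by this test was not counted in any comparison. For G against T, the effect of the Gas1 plasmid in DEN-treated mice, 0 members were called (0.132% of all genes). At the unadjusted p 2 members (5.41%) had higher values, beside 4.18% of all genes, and 4 (10.8%) lower ones, beside 6.62%. The methods' t-test gave 7 at that p, of which 0 passed after adjustment (5 of 22017 genes in all). For G against C 0 members were called (0.427% of all genes), and at the unadjusted p 2 (5.41%) had higher and 0 lower values, beside 6.1% and 7.16% of all genes, with 2 by the methods' t-test and 0 after adjustment (5 of 22002 genes in all). The median log2 difference of the members was 0.02, -0.02 and 0.00 in the 3 comparisons, against 0.01, -0.01 and 0.00 over all genes. The mice of T enter both T against C and G against T, so values that point in opposite directions there are not independent of each other. Below, every p is from limma, and no member's p passed the adjustment.

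**Figure D2:**
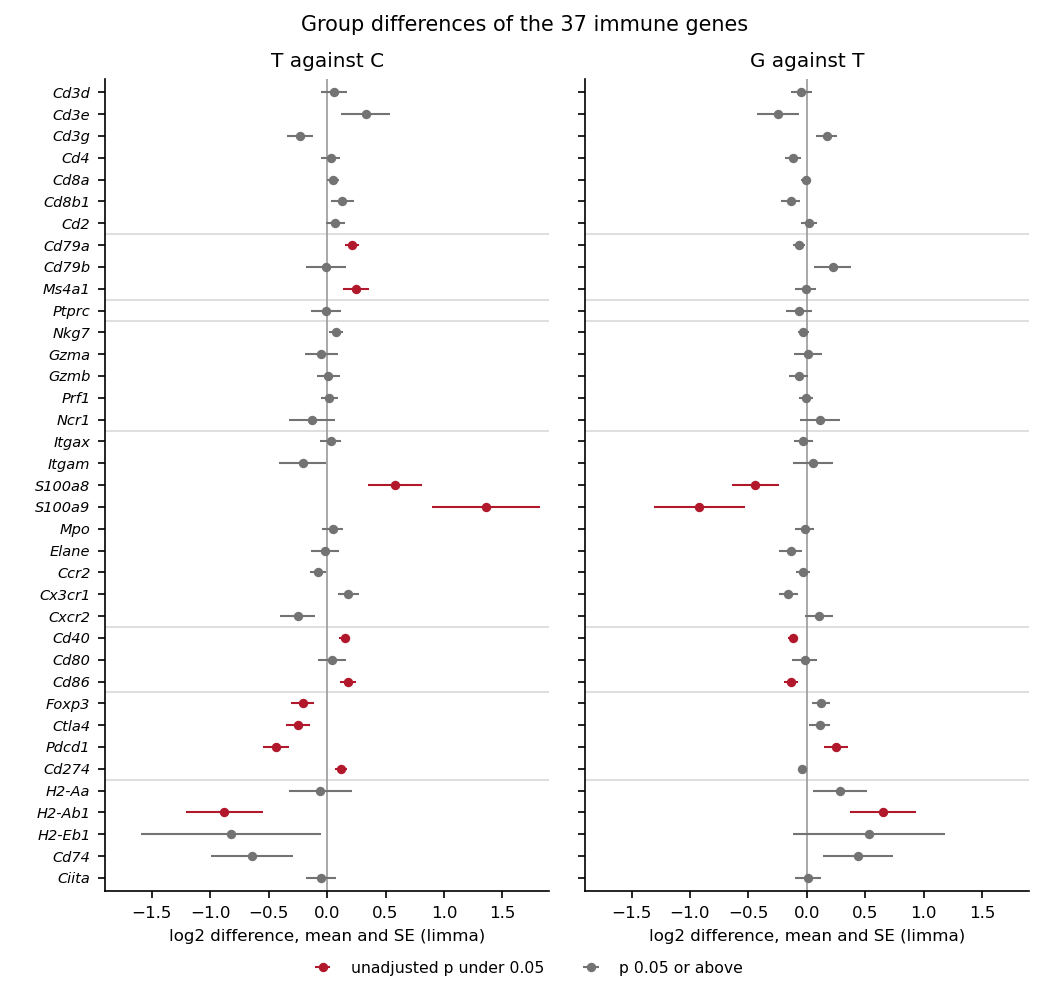
Log2 difference of each of the 37 genes with its standard error (limma), for T against C (left) and G against T (right), with unadjusted p under 0.05 in red (11 and 6 genes). S100a9 lies farthest to the right in T against C at 1.36 and H2-Ab1 farthest to the left at -0.88, and most other genes lie near 0.

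Ptprc, which encodes CD45 and is carried by all leukocytes, did not separate the groups. Its log2 intensity was 6.89, 6.47 and 6.21 in C1 to C3, 6.61, 6.50, 6.47 and 6.46 in T1 to T4, and 6.24 to 6.57 in G with a median of 6.49. The 3 groups overlapped, with the highest and the lowest mouse both in group C. T against C differed by -0.01 (SE 0.13, adjusted p = 0.979) and G against T by -0.07 (SE 0.11, adjusted p = 0.861). The gene was well above background on 12 of 15 arrays.

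Among the T cell genes, the CD3 chains and the co-receptors CD4 and CD8 were detected unequally. Cd3e, an invariant signalling chain of the T cell receptor complex, was 8.41, 8.49 and 7.98 in C, 8.19, 8.69, 8.72 and 8.90 in T, and 8.06 to 8.85 in G with a median of 8.32. T4 was the highest mouse and C3 the lowest, and all groups overlapped (T against C 0.33, SE 0.21, adjusted p = 0.424, G against T -0.25, SE 0.18, adjusted p = 0.659). With arrays scaled to their median in place of quantile normalization, T against C was 1.13 (adjusted p = 0.0216), and the median of all genes was 0.12. The other chains of the same complex, Cd3d and Cd3g, were well above background on 4 and 6 arrays. Cd3g averaged 6.42 in C, 6.19 in T and 6.36 in G, and was above background on 2 of 4 arrays of C, 0 of 5 of T and 4 of 6 of G, with a difference of -0.23 for T against C (adjusted p = 0.252). No array of T measured it. The mean of all 3 mice of C was 1.11-fold the faintest spot that still carried the background flag on the arrays of T. This ratio is no lower bound, since only 2 of 4 arrays of C measured the gene. The repeat arrays of C3 gave 6.82 and 6.34.

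Cd4, the co-receptor of helper T cells, rested on 1 of its 2 probes. The probe at chr6:124814711-124814770 (mm9, the build of all probe positions here) averaged 10.35, 10.42 and 10.16 in C, T and G and was detected on 15 arrays, whereas the probe at chr6:124817706-124817765 averaged 6.16, 6.15 and 6.18 and was detected on 4. Cd8a, a chain of the co-receptor of cytotoxic T cells, was above background on 1 array and its partner Cd8b1 on none. Their group means lay between 5.96 and 6.21. Cd2, an adhesion molecule of T and NK cells, was detected on 6 arrays, 2 of T and 4 of G, with means of 6.06, 6.13 and 6.15 in C, T and G. Over the 7 T cell genes the median difference was 0.06 for T against C and -0.05 for G against T, and 0 of 7 had an unadjusted p under 0.05 in any comparison.

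The B cell genes Cd79a and Ms4a1 had somewhat higher means in both DEN-treated groups than in the controls. Cd79a, which encodes a signalling chain of the B cell receptor, was 5.91, 5.98 and 6.02 in C, 6.17, 6.21, 6.24 and 6.13 in T, and 6.04 to 6.23 in G with a median of 6.10. All 4 mice of T and all 6 of G lay above all 3 mice of C. The differences were 0.21 for T against C (SE 0.06, adjusted p = 0.0675) and 0.15 for G against C (SE 0.05, adjusted p = 0.256), while G against T was -0.07 (SE 0.05, adjusted p = 0.658). They are differences close to the background, which the gene passed on 0 of 4 arrays of C, 1 of 5 of T and 4 of 6 of G. Its probe at chr7:25686823-25686882 carried them (0.32 for T against C, adjusted p = 0.102 over all probes), and the other probe gave 0.11 (adjusted p = 0.413).

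Ms4a1, the gene of the B cell surface protein CD20, was 5.92, 5.86 and 5.93 in C, 6.28, 6.11, 6.28 and 5.94 in T, and 5.87 to 6.39 in G with a median of 6.15. T4 exceeded the highest control by 0.01 only, and G overlapped with C. T against C was 0.25 (SE 0.11, adjusted p = 0.214) and G against C 0.24 (SE 0.10, adjusted p = 0.313), and the gene was above background on 1 array. Cd79b, the partner chain of CD79A, was detected on 12 arrays with means of 6.53, 6.51 and 6.74 in C, T and G (n = 3, 3 and 5, since the spots of T1 and G5 were outliers and left out). It did not follow the other 2 genes in T against C, where its difference was -0.01.

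Genes of NK cells and cytotoxic lymphocytes did not separate the 3 groups. Nkg7, a granule protein of these cells, was 6.80, 6.62 and 6.76 in C, 6.93, 6.79, 6.80 and 6.73 in T, and 6.69 to 6.85 in G with a median of 6.78. The groups overlapped, and the whole range over 13 mice was that between C2 and T1. Its differences were 0.08 (SE 0.06, adjusted p = 0.514) for T against C and -0.03 (SE 0.05, adjusted p = 0.882) for G against T. The detection of Nkg7 rested on its probe at chr7:50693530-50693589, which averaged 7.5, 7.51 and 7.47 in C, T and G on 15 arrays. Its other probe averaged 5.95, 6.11 and 6.08 and was detected on 1 array. Granzyme A (Gzma), perforin (Prf1) and the NK cell receptor NKp46 (Ncr1) were detected on 7, 10 and 10 arrays and granzyme B (Gzmb) on none. Ncr1 spread most in C, from 5.93 in C2 to 7.03 in C1, a range wider than that of all other mice together (6.16 to 6.79). Over these 5 genes the median differences were 0.01 and -0.01, and 0 of 5 had an unadjusted p under 0.05 in any comparison.

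Of the 9 myeloid genes, the pair S100a8 and S100a9, which encode the subunits of calprotectin, showed the largest positive differences of all 37 members in T against C. S100a9 (probe at chr3:90496573-90496632) had a log2 intensity of 6.61, 7.44 and 7.86 in C1 to C3, 8.84, 10.03, 8.23 and 7.55 in T1 to T4, and 7.34 to 8.11 in G with a median of 7.81. In 3 of 4 mice of T the level exceeded all mice of C and G, T2 stood farthest out, and T4 lay within the range of both other groups. The gene was 2.57-fold higher in T than in C (log2 1.36, SE 0.46, adjusted p = 0.130). G was 0.529-fold T (log2 -0.92, SE 0.39, adjusted p = 0.425), and G differed from C by 0.44 (SE 0.43, adjusted p = 0.712). Without T2 the log2 difference of T against C was 0.91 (adjusted p = 0.212), without C1, the lowest mouse, 1.02 (adjusted p = 0.371), and on each slide alone 1.16 and 0.95 (adjusted p = 0.565 and adjusted p = 0.314). Scaled to the median it was 1.83, and this setting called it (adjusted p = 0.0411).

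S100a8 (chr3:90473778-90473837) gave the same order of mice in group T. It was 5.92, 6.10 and 6.61 in C, 6.84, 7.49, 6.49 and 6.33 in T, and 6.19 to 6.57 in G with a median of 6.33. T2 and T1 exceeded all other mice, and the remaining mice of T overlapped with C and G. The difference was 0.58 for T against C (SE 0.23, adjusted p = 0.188) and -0.44 for G against T (SE 0.20, adjusted p = 0.444), and it was 0.34 (adjusted p = 0.324) for T against C without T2. The gene was detected on 10 of 15 arrays.

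**Figure D3:**
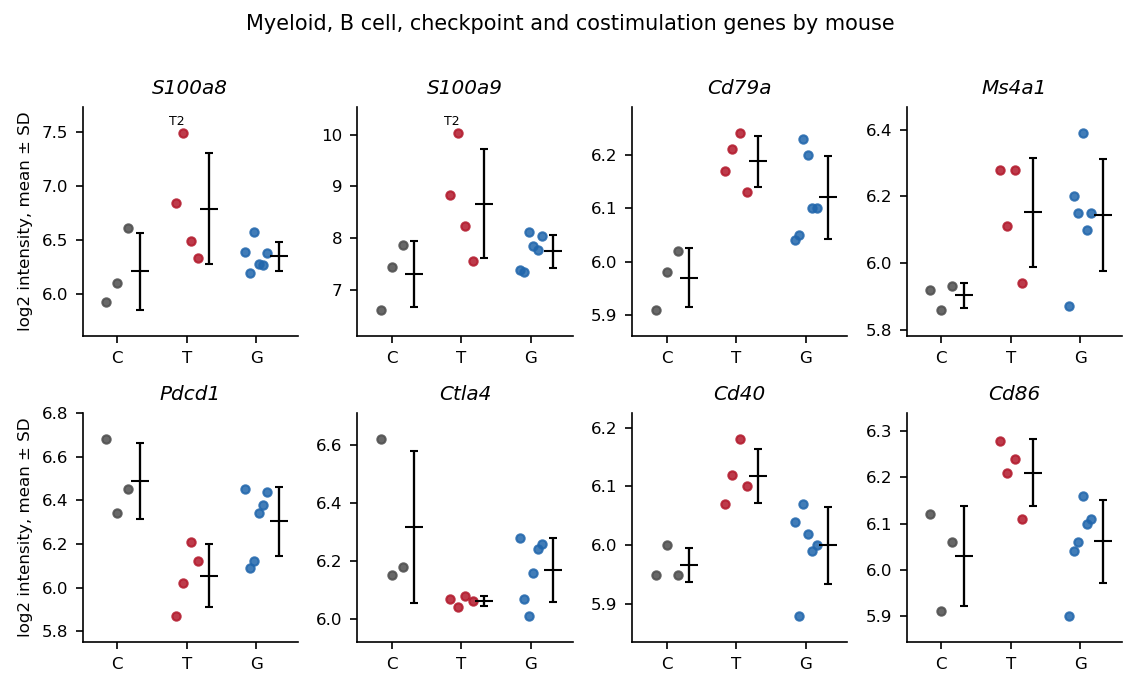
Log2 intensity of 8 members in each mouse of groups C, T and G (points, n = 3, 4 and 6), with the mean and SD of the group in black, each panel on its own scale. T2 is the highest mouse for S100a8 and S100a9, the mice of T lie above those of C for Cd79a, Ms4a1 and Cd40, and below them for Pdcd1 and Ctla4.

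None of the other 7 myeloid members had an unadjusted p under 0.05 in any comparison. Elane and Mpo, which encode the granule enzymes neutrophil elastase and myeloperoxidase, had means of 7.13, 7.11 and 6.97 and of 6.01, 6.06 and 6.04 in C, T and G, and were detected on 15 and 5 arrays. The chemokine receptors Ccr2 of inflammatory monocytes, Cx3cr1 of patrolling monocytes and Cxcr2 of neutrophils were detected on 1, 11 and 6 arrays, with differences of -0.08, 0.18 and -0.25 in T against C and -0.03, -0.16 and 0.10 in G against T. Cx3cr1 thus had the signs of S100a8 and S100a9 in both comparisons (adjusted p = 0.321 and adjusted p = 0.5). T2 had its highest gene value, but only through a probe that was above background on no array (6.25 in T2). On its other probe T2 had no value, and C1 was the highest mouse at 6.84. The integrin chain gene Itgax (CD11c), frequent on dendritic cells, was detected on 3 arrays.

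Itgam, the gene of the integrin chain CD11b, reached the background flag on 15 arrays through 1 of its 3 probes. That probe, at chr7:135261755-135261814, averaged 10.05, 9.49 and 9.78 in C, T and G, and the other probes were detected on 0 and 3 arrays. The first 30 of its 60 bases are shown with a run of 10 copies of CA in capitals, because such a repeat occurs at many places in a genome:
Itgam probe: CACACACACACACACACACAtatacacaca
Whether this probe measures Itgam alone was not tested. Among the 16 further neutrophil genes on the array, 0 were called in any comparison. Prtn3, a protease of the same granules as elastase, gave a log2 difference of 0.78 in T against C (adjusted p = 0.255) and -0.72 in G against T (adjusted p = 0.427). It was above background on 3 arrays, and in T its median was 6.34 and its highest mouse 8.24. Chi3l3, a chitinase-like protein, gave 0.50 (adjusted p = 0.135) and -0.42 (adjusted p = 0.304). It was above background on 2 arrays, with a median of 6.29 and a highest mouse of 7.04 in T. Ngp and Camp of the secondary granules gave -0.31 and -0.19 in T against C. The smallest p of that list belonged to Il1b, an inflammatory cytokine (0.15 in T against C, adjusted p = 0.113), which was above background on no array.

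Blood in the liver was read from 5 red blood cell markers, 3 of them detected on all arrays. Their summed level ran from 12.97 to 13.74 in C, from 14 to 14.39 in T and from 13.24 to 15.18 in G (log2). The adult globin gene Hbb-b1 gave a log2 difference of 1.89 in T against C (adjusted p = 0.104) and 1.60 in G against C (adjusted p = 0.228), beside 1.36 and 0.44 for S100a9. The summed level of the 16 further neutrophil genes ran from 11.74 to 12.08 in C, 11.76 to 12.64 in T and 11.61 to 13.04 in G. Most of this sum was Csf3r, the receptor of the growth factor G-CSF, which averaged 11.51, 11.66 and 12.04 in C, T and G, while no other gene of the list averaged above 6.78 in any group. The part of blood and of neutrophils in the values of S100a8 and S100a9 was not tested. Among 6 Kupffer cell markers, Emr1, a classical macrophage marker, was the only one called (0.31 higher in T than in C, adjusted p = 0.0267). It averaged 6.18 in C and 6.48 in T. The median of the 6 was 0.30 in T against C, from -0.06 for Clec4f to 0.83 for Marco, with 5 of them positive.

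Of the costimulatory molecules that antigen-presenting cells offer to T cells, Cd40 and Cd86 had slightly higher means in T than in either other group. Cd40 was 5.95, 6 and 5.95 in C, 6.07, 6.12, 6.18 and 6.10 in T, and 5.88 to 6.07 in G with a median of 6.01. T did not overlap with C and met G at 6.07. The differences were 0.15 for T against C (SE 0.05, adjusted p = 0.132) and -0.12 for G against T (SE 0.04, adjusted p = 0.340), on a gene that no array measured above background.

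Cd86 was 6.12, 5.91 and 6.06 in C, 6.28, 6.21, 6.24 and 6.11 in T, and 5.90 to 6.16 in G with a median of 6.08, above background on 2 arrays. T4 alone among the mice of T overlapped with the other groups. T against C was 0.18 (SE 0.07, adjusted p = 0.178) and G against T -0.14 (SE 0.06, adjusted p = 0.400). Cd80, the third of these genes and a ligand of CD28 and CTLA-4 as CD86 is, was detected on 10 arrays and gave 0.04 and -0.02.

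Of the inhibitory receptors, Pdcd1 and Ctla4 had lower values in T than in C. Lag3, another such receptor from the further lists, had differences of the opposite sign, 0.18 in T against C (adjusted p = 0.112) and -0.16 in G against T (adjusted p = 0.224), and Tigit, Havcr2 and Btla gave -0.06, -0.04 and 0.04 in T against C. Pdcd1, which encodes the receptor PD-1 of activated T cells (probe at chr1:95935064-95935123), was 6.68, 6.34 and 6.45 in C, 5.87, 6.02, 6.21 and 6.12 in T, and 6.09 to 6.45 in G with a median of 6.36. All mice of T lay below all mice of C, and G overlapped with both. The repeat arrays of T4 gave 6.31 and 5.93, and those of C3 6.54 and 6.36. T against C was -0.44 (SE 0.11, adjusted p = 0.0615), the smallest p of all members, G against T 0.25 (SE 0.10, adjusted p = 0.380), and G against C -0.19 (SE 0.11, adjusted p = 0.473). The gene was above background on 3 of 4 arrays of C, 0 of 5 of T and 4 of 6 of G. The mean of all mice of C was 1.16-fold the faintest spot that still carried the background flag on the arrays of T. This ratio is no lower bound, since not all arrays of C measured the gene. For G over T no such ratio is given, since G2 and G3 lay within the range of T. Without C1 the difference of T against C was -0.34 (adjusted p = 0.212).

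Ctla4, the receptor that competes with CD28 for CD80 and CD86, was 6.62, 6.15 and 6.18 in C, 6.07, 6.04, 6.08 and 6.06 in T, and 6.01 to 6.28 in G with a median of 6.20. T lay below C without overlap, and G spanned both. The repeat arrays of C3 gave 6.36 and 6.01, farther apart than the means of T and C. The difference of -0.25 (SE 0.10, adjusted p = 0.189) shrank to -0.10 (adjusted p = 0.569) without C1, and the gene was detected on 2 arrays of C, 0 of T and 3 of G.

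Foxp3, the transcription factor of regulatory T cells, and Cd274, the gene of PD-L1, the ligand of PD-1, were above background on no array. Foxp3 was 5.94, 6.43 and 5.96 in C, 5.88, 5.97, 5.87 and 5.88 in T, and 5.98 to 6.10 in G with a median of 6.01. Its difference of -0.21 in T against C (SE 0.10, adjusted p = 0.246) went with the 6.43 of C2, and G lay just above T without overlap (0.12, adjusted p = 0.631). Cd274 was 6.06, 5.95 and 6.08 in C, 6.21, 6.13, 6.14 and 6.12 in T, and 6.07 to 6.18 in G with a median of 6.08. T lay above C without overlap, by a difference of 0.12 (SE 0.05, adjusted p = 0.199).

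The 5 genes of MHC class II presentation all had negative log2 differences in T against C, with a median of -0.64 (range -0.88 to -0.05, all genes 0.01), and positive ones in G against T, with a median of 0.44 (0.01 to 0.65, all genes -0.01). None was called, and 1 of 5 had an unadjusted p under 0.05 in each. The direction of the first comparison was not independent of the scaling: with arrays scaled to their median, the class II median was 0.02 with 2 of 5 genes negative, where the median of all genes moved to 0.12. It also leaned on C1, without which the median was -0.05, whereas the median of G against T was positive under all 28 alternatives (0.22 to 0.66).

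Markers of some other liver cells differed in the same directions, and those of others did not. For cholangiocyte markers the medians of T against C and G against T were -0.22 and 0.17. They were 0.30 and -0.06 for Kupffer cell, 0.07 and 0.04 for sinusoidal endothelial cell and 0.25 and -0.04 for red blood cell markers. Of 6 stellate cell and fibroblast markers, 6 were negative in T against C (median -0.26) and 5 positive in G against T (median 0.36), with 0 called. Dcn, the gene of the matrix protein decorin, gave -0.82 (adjusted p = 0.0947) and 0.63 (adjusted p = 0.337), with 4 of 6 mice of G measured. The summed level of these markers ran from 12.48 to 13.14 in C, 11.57 to 12.56 in T and 9.46 to 12.81 in G, where mice with no Dcn value have too low a sum, and that of the class II genes from 10.56 to 11.98, 9.99 to 10.95 and 10.56 to 11.2. Of the 8 hepatocyte markers 2 were called lower in T than in C, the plasma protein gene Ttr (-1, adjusted p = 0.00425) and the urea cycle gene Ass1 (-0.60, adjusted p = 0.0112), and they gave 0.60 and 0.20 in G against T, where the list's median was 0.00. In T against C 2 of the 8 hepatocyte markers were positive, among them Apoa1 (0.55, adjusted p = 0.0657), which gave -0.36 in G against T (adjusted p = 0.305). The part of these liver cells in the class II values was not tested.

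H2-Ab1, the gene of the beta chain of the I-A molecule, was 10.78, 9.26 and 9.84 in C1 to C3, 9.57, 8.67, 9.44 and 8.64 in T1 to T4, and 9.24 to 10.08 in G with a median of 9.77. C1 was the highest mouse and T4 and T2 were the lowest, and all groups overlapped. T against C was -0.88 (SE 0.33, adjusted p = 0.158), 0.542-fold, and G against T 0.65 (SE 0.28, adjusted p = 0.425), 1.57-fold. Without T2, G against T was 0.51 (adjusted p = 0.703). On each slide alone T against C was -0.90 and -1.11 (adjusted p = 0.261 and adjusted p = 0.136) and G against T 1.02 and 0.57 (adjusted p = 0.320 and adjusted p = 0.582). Without C1 the difference of T against C was -0.47 (adjusted p = 0.477), and scaled to the median it was 0.02 (adjusted p = 0.983).

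H2-Ab1 was measured by 2 probes, at chr17:34406296-34406355 and chr17:34406305-34406363, which overlap by 51 bases and differ there in 1 base. The same 25 bases of each are shown, with that base in capitals, since class II genes are among the most variable of the genome and CD1 mice are outbred:
H2-Ab1 probe 1: acaaataaacgagacTcagactctg
H2-Ab1 probe 2: acaaataaacgagacCcagactctg
Counted from 1 at the 5′ end of the first probe, the substitution is T51C. Both gave like differences, -0.89 and -0.87 for T against C and 0.62 and 0.67 for G against T. They share most of their sequence and are not independent measurements.

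Cd74 encodes the invariant chain, which escorts class II molecules to the compartment where peptide is loaded. It was 10.38, 8.87 and 9.21 in C, 9.26, 8.48, 9.20 and 8.46 in T, and 8.65 to 9.80 in G with a median of 9.38. The mice stood much as for H2-Ab1, with C1 the highest and T4 and T2 the lowest, and the groups overlapped. T against C was -0.64 (SE 0.35, adjusted p = 0.344) and G against T 0.44 (SE 0.30, adjusted p = 0.635), and without C1 the first was -0.19 (adjusted p = 0.834). With arrays scaled to their median the sign of T against C turned, to 0.23 (adjusted p = 0.790).

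H2-Aa, the gene of the alpha chain that pairs with the product of H2-Ab1, was 7.31, 7.01 and 7.51 in C, 7.66, 6.75, 7.43 and 7.01 in T, and 6.82 to 8.03 in G with a median of 7.59 (probe at chr17:34421285-34421344). The groups overlapped. In T the mice stood as for H2-Ab1, with T1 and T3 above T4 and T2, and G1, G4 and G5 were the highest of G for both genes, whereas C1 was not the highest control. The differences were -0.06 (SE 0.27, adjusted p = 0.933) for T against C and 0.28 (SE 0.23, adjusted p = 0.704) for G against T.

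H2-Eb1, the beta chain of the I-E molecule, split the mice into sets that crossed the groups (probe at chr17:34453075-34453134). It was 9.5, 7.91 and 6.48 in C1 to C3, 8.39, 6.23, 6.48 and 7.48 in T1 to T4, and 8.34, 8.19, 8.19, 6.53, 8.59 and 6.21 in G1 to G6. In 5 mice (C3, T2, T3, G4 and G6) the level was between 6.21 and 6.53, and in the other 8 between 7.48 and 9.5, with a gap of 0.95 between the sets. The repeat arrays of 1 RNA fell on the same side, at 6.43 and 6.54 for C3 and at 7.46 and 7.51 for T4. Within the upper set C1 (9.5) also stood apart from the next mouse, G5 (8.59). G4, low for H2-Eb1, was the highest mouse of G for H2-Ab1 and Cd74, so the split was not one of class II genes as a whole. With this spread, the differences of -0.82 (SE 0.77, adjusted p = 0.608) for T against C and 0.53 (SE 0.65, adjusted p = 0.820) for G against T were smaller than or close to their errors. The alleles these mice carried are not known from the sources used here.

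**Figure D4:**
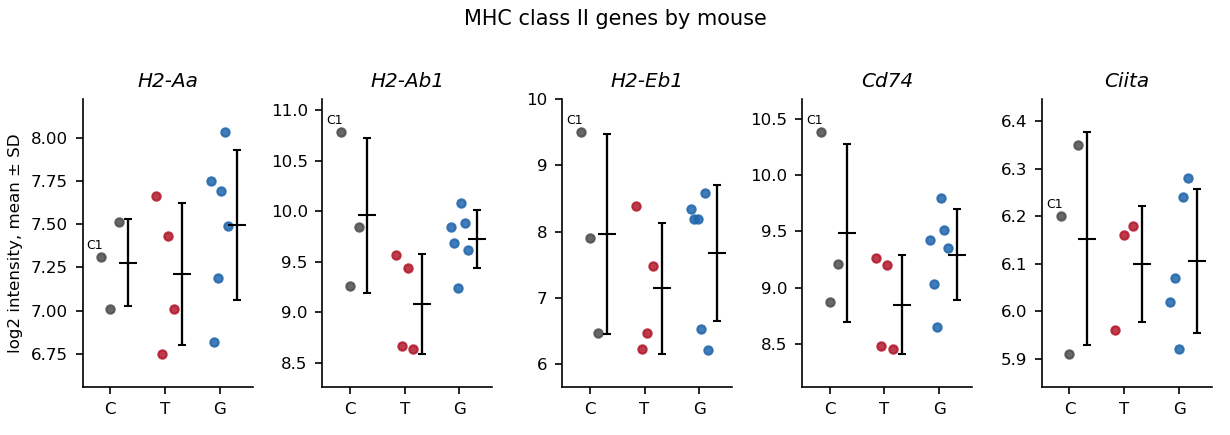
Log2 intensity of the 5 MHC class II members in each mouse of groups C, T and G (points, n = 3, 4 and 6, for Ciita 3, 3 and 5), with the mean and SD in black, each panel on its own scale. C1, labelled, is the highest mouse for H2-Ab1, H2-Eb1 and Cd74 but not for H2-Aa and Ciita, and H2-Eb1 leaves a gap between 6.53 and 7.48.

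Ciita, the coactivator of the class II promoters, was above background on 4 arrays, with means of 6.15, 6.10 and 6.11 in C, T and G (n = 3, 3 and 5, the spots of T3 and G5 being outliers). The differences were -0.05 for T against C and 0.01 for G against T. Of 16 further class II genes, 1 was called, Rfxank, which encodes a subunit of the RFX complex that binds the X box. Its level averaged 8.24 ± 0.16 in C, 7.69 ± 0.09 in T and 7.55 ± 0.20 in G (SD, n = 3, 4 and 6), with all mice of T and G below all mice of C. It was lower by -0.55 in T against C (adjusted p = 0.0364) and by -0.69 in G against C (adjusted p = 0.0297), and G against T was -0.14 (adjusted p = 0.659). The other subunits Rfx5 and Rfxap gave 0.07 and 0.13 and the NF-Y subunits Nfya, Nfyb and Nfyc 0.08, -0.06 and 0.03 in T against C, none of them called.

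Further genes of the same pathways were read from a list of 136, of which 135 were on the array, 50 of them above background on no array. In T against C 0 were called higher and 2 lower, Rfxank and Spn, in G against T 0 either way, and in G against C 0 higher and 1 lower, Rfxank. At the unadjusted p, T against C held 12 higher (8.89%) and 8 lower (5.93%), both below the 10.6% and 9.61% of all genes. G against T held 3 (2.22%) and 11 (8.15%), beside 4.18% and 6.62%, and G against C 4 (2.96%) and 6 (4.44%), beside 6.1% and 7.16%. Spn, the gene of the leukocyte sialoglycoprotein CD43, averaged 6.39, 6.11 and 6.23 in C, T and G, with T below C (-0.29, SE 0.06, adjusted p = 0.0363), and was detected on 8 arrays.

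In each remaining list the gene with the smallest p was not called. Lat, an adaptor behind the T cell receptor, averaged 7.16, 6.27 and 6.81 and was -0.90 in T against C (adjusted p = 0.0859), with T below C as for Pdcd1. Cd72, a coreceptor of B cells, was 0.23 (adjusted p = 0.0833), and Tbx21, the T-bet factor of NK and helper T cells, -0.21 (adjusted p = 0.193) in the same comparison. In G against T, Tnfrsf18, the receptor GITR, was -0.26 (adjusted p = 0.180), and calreticulin (Calr), which helps to load MHC class I molecules, -0.46 (adjusted p = 0.0787). The 13 MHC class I genes had medians of 0.03 and -0.14 in T against C and G against T, and 11 of them were detected on all arrays.

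Mice were also ranked for each member. Of the 35 members with a value in all 13 mice, C1 was the highest mouse for 10 and T1 and T2 for 6 and 5, while no other mouse was so for more than 3. The lowest mouse was C2 for 6 members and C1 for 5, and no other mouse for more than 3. C1 was highest for H2-Ab1, H2-Eb1, Cd74, Ptprc, Gzma, Ncr1, Cxcr2, Ccr2, Ctla4 and Pdcd1, genes of several cell types.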

How the data were processed

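Liver RNA was labelled with 1 dye and hybridised to Agilent 8x60K mouse arrays. The deposited scanner files hold the intensity of each spot, its local background and the authors' software flags (Agilent Feature Extraction, per the submitters' processing notes, version not given in the sources used here). The authors also deposited log2 values of all probes, and 99.3% of the probe values computed here lay within 0.05 of it. Mean and background intensities were corrected with normexp (offset 50), quantile-normalized and put on the log2 scale. Of 62976 spots, 3671 control spots and all outlier spots (218 to 3692 per array) were left out, and 0 spots were saturated. Probes of a gene symbol were averaged after centring. Groups were compared with limma 3.58.1 (R 4.3.3), moderated by eBayes, over 22032 gene symbols, with p-values adjusted by Benjamini and Hochberg and called under 0.05, after a check on simulated data. The 15 arrays stood for 13 mice, which limits the precision, and the mice's separate cages or litters are not given.

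Values per mouse are given for members with an unadjusted p under 0.05 in any comparison and for a leading marker of each class (Ptprc, Cd3e, Cd79a, Nkg7, S100a8, H2-Aa and Cd74). Of the further lists of immune genes, called genes are named, and otherwise the gene with the smallest p. The lists of cell type markers did not follow this rule (Hbb-b1 and Apoa1 are named without it). Those of lymphoid stroma and exocrine pancreas are not reported here. Per-mouse values of H2-Eb1 and Ncr1, and Prtn3, Chi3l3, Ngp, Camp, Csf3r, Lag3, Tigit, Havcr2, Btla, Dcn and the RFX and NF-Y subunits, were chosen after their values were seen. The members and lists were chosen with earlier results of these data known. The alternatives were median scaling, cyclic loess, the software's processed signal, another offset, the authors' log2 values, a filter on dim probes, the brightest probe, outlier spots kept, arrays as samples, slide, replicate number, other fits, the methods' t-test and leaving out each mouse. The authors' files do not place the probes in exons, introns or UTRs.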

Additional observations from a re-analysis of the deposited data

Results flagged for a closer look

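In groups T and G, 72 sets of values were searched for a single mouse far from the rest of its group, and 4 were found, where chance gives about 3.6. Cd3d, a chain of the T cell receptor complex, was 6.59 in G1 and 6.08 to 6.23 in the other mice of G. Gzma, granzyme A, was 6.62 in T3 and 6.23 to 6.28 in the other mice of T. Cx3cr1, the receptor of patrolling monocytes, was 6.48 in T2 and 6.30 to 6.32 in the other mice of T. This T2 value came only from a probe that was above background on no array. Foxp3 was 5.97 in T2 and 5.87 to 5.88 in the other mice of T, below background in each. Group C, with 3 mice, was not searched.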

How the results depend on the processing

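The count of members called in T against C, 0 as reported, was taken again under 28 alternatives. With arrays scaled to their median it was 3 (Cd3e 1.13, Cd4 0.53 and S100a9 1.83), where 2876 of all genes were called, 2861 of them higher. With the filter on dim probes it was 1 of 28 members (Pdcd1, adjusted p = 0.0494), where 755 of 13612 genes were called. With the 15 arrays taken as separate samples it was 4 of 37 (Cd40, Cd79a, H2-Ab1 and Pdcd1), where 1949 of 22032 genes were called. Without any 1 mouse it was 0. Members at an unadjusted p under 0.05 in T against C, 11 as reported, were 6 with the dim filter, 3 within slide 1, 5 within slide 2, 6 by the methods' t-test, and 7 to 11 without single mice. In G against T, 6 as reported, they were 2 with the processed signal, 3 within slide 1, 2 within slide 2, 2 with a replicate block and 1 to 8 without single mice. In G against C, 2 as reported, they were 4 with median scaling, 1 with the dim filter, 1 with slide as a term, 3 within slide 1, 1 within slide 2, and 1 to 4 without single mice. The share of all genes at the unadjusted p was not counted under the alternatives, so these counts do not tell the members from all genes. By adjusted p, 523 of all genes were called in T against C as reported, 46 within slide 1 and 17 within slide 2. The cause of the shifts in these counts was not tested, save that the dim filter tests 28 members and a single slide fewer mice. Same-numbered mice did not deviate together (correlations of -0.31 to 0.25 over 10 pairs), so the numbers pair nothing. Most members lie near the background, so differences in weakly expressed ones may not be detectable here.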
